A study of Mus musculus with 67 samples.

Results

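Crypts of irradiated mice that were given VPA and EPZ6438 were compared with crypts of irradiated mice without the compounds, at days 1, 2 and 5 after irradiation, by bulk RNA-seq. The 12 libraries were chosen by their labels alone out of 67 in the series, 6 marked +VE (here VPA/EPZ6438) and 6 marked only as irradiated (here Vehicle). The labels do not state what the mice without the compounds received, and Vehicle is the name in a drawing of the experiment. Each combination of day and treatment held 2 libraries, and the 4 libraries of day 3 and the 2 of normal crypts were used only for values beside these. VPA (valproic acid) inhibits histone deacetylases and EPZ6438 (tazemetostat) inhibits EZH2, the enzyme that methylates histone H3 at lysine 27. The mice were of the C57BL/6 strain. According to the study's methods, they received a single dose of irradiation and then VPA and EPZ6438 together by daily gavage, so the compounds cannot be told apart. Every one of the 12 libraries came from irradiated mice. The study's methods give crypt release with EDTA from the proximal small intestine for organoid culture. For the irradiated mice they name only small intestinal crypts. The labels do not say whether the libraries of a group came from separate mice, although the study describes separate mice for the crypt libraries of the remaining time point, and p-values then measure only the spread between these libraries, which may be technical.

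The crypt holds the stem cells of the intestinal epithelium at its base, with Paneth cells between them, and above these the dividing progenitors of the transit-amplifying zone. Daughter cells move up toward the villus and mature into absorptive enterocytes or into secretory cells, the goblet, enteroendocrine and tuft cells. Enterocytes carry disaccharidases and peptidases on their brush border, take up sugars, peptides and retinol, and package dietary fat into lipoproteins with apolipoproteins. Irradiation kills dividing crypt cells, and surviving cells then rebuild the crypt over the following days. A crypt preparation can also hold cells of the lower villus. In bulk RNA, fewer cells of a type and less RNA per cell cannot be told apart.

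The values are TPM, that is, transcript abundances corrected for length and scaled within each library, and the genes of the table used summed to between 850191 (Vehicle replicate 2 of day 2) and 910935 TPM (Vehicle replicate 2 of day 5) in the 12 libraries. Read numbers cannot be recovered from them, so no depth or counting error can be stated for a library. Epithelial markers were high in all 12 libraries, with Krt8 between 1954 and 3566 TPM and Epcam between 417 and 911 TPM, while Lgr5, the defining marker of crypt base stem cells, lay between 0.0937 and 1.15 TPM and had too low a mean to be tested. The first principal component held 49.4% of the variance and separated day 5 from days 1 and 2. Mitochondrially encoded genes took 96722 to 346841 TPM of a library, and at days 1 and 2 the Vehicle libraries lay above the VPA/EPZ6438 libraries of the same day. A single gene, mt-Atp8, at 67974 to 231940 TPM, made up most of this sum in each library. At day 2 mt-Atp8 itself overlapped, at 231940 and 156078 TPM in Vehicle and 161718 and 134376 TPM in VPA/EPZ6438. The deviation of a library's genes from their mean was correlated with transcript length at between -0.37 and 0.27, and the lowest values belonged to Vehicle replicate 2 of day 1 and of day 2. Summed markers of T and NK cells were 291 and 214 TPM in Vehicle and 606 and 764 TPM in VPA/EPZ6438 at day 1, and they overlapped at day 2. Of 8 such measures, each compared by an exact permutation of treatment labels within days (216 arrangements, two-sided, smallest possible p = 0.00926), the lowest adjusted p was 0.111. With so few arrangements a single measure on its own could not reach an adjusted p under 0.05. The lung measure was added after its values were seen. The test thus does not show that the libraries were alike.

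**Figure D1:**
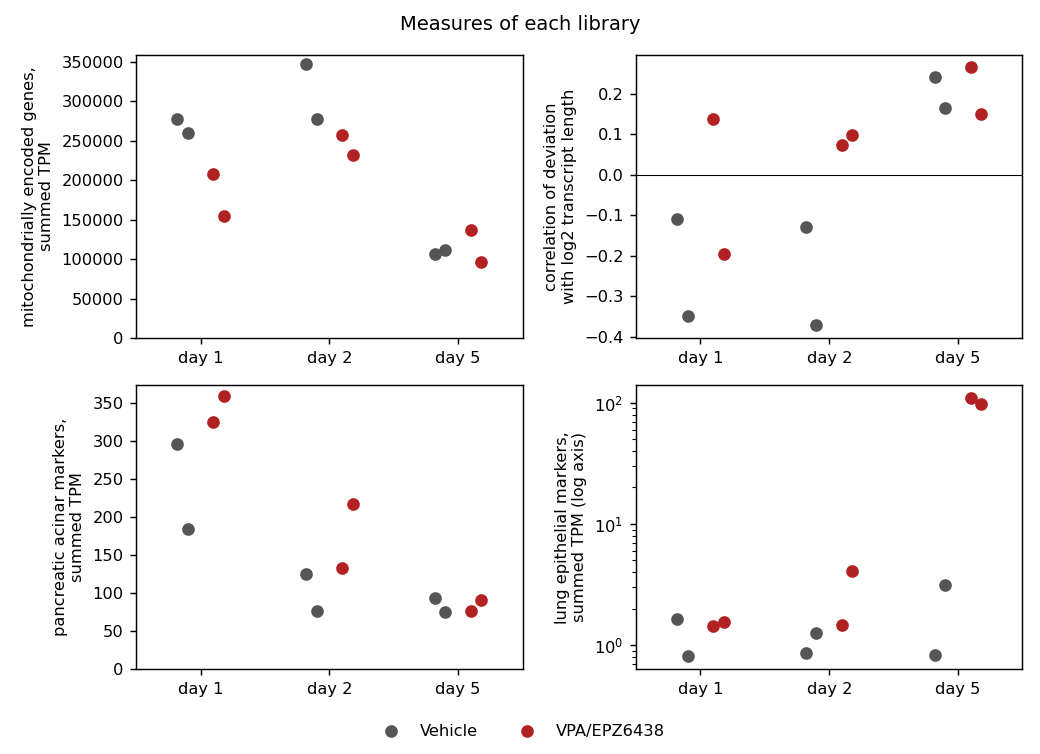
Summed TPM of mitochondrially encoded genes, correlation of each library's deviation with log2 transcript length, summed TPM of pancreatic acinar markers and summed TPM of lung epithelial markers (log axis), by day, with 1 point per library (grey Vehicle, red VPA/EPZ6438). The Vehicle libraries of days 1 and 2 lie above VPA/EPZ6438 in the mitochondrial sum, most of which is mt-Atp8. The lung markers are at 109 and 97.3 TPM in both VPA/EPZ6438 libraries of day 5 and at 4.09 TPM or less in the others.

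With day as a block, genes of the mature enterocyte, among them those of fat handling and of the brush border, were higher on balance in VPA/EPZ6438 than in Vehicle, but no single gene passed the test. Genes of ribosomal proteins and of cholesterol synthesis had negative medians. Of 73 ribosomal protein genes, 38 were lower at an unadjusted p under 0.05, which became 13 with the trend of each library with transcript length removed. Values were quantile-normalized log2(TPM + 1), a scale that understates the change of weakly expressed genes, and all differences below are VPA/EPZ6438 minus Vehicle on this scale. Of 10714 genes tested with limma, 0 (0%) had a Benjamini-Hochberg adjusted p under 0.05, and 1742 had an unadjusted p under 0.05, of which 874 were higher (8.16% of genes tested) and 868 lower (8.10%). With libraries scaled to the 75th percentile 1013 were higher and 693 lower. Without quantile normalization 3610 were higher (33.7%) and 24 lower (0.224%), as the median over all genes moved from -0.017 to 0.25, so the counts of a list under that setting are read against these shares and its median is given relative to all genes. Relative to all genes the median of the ribosomal proteins was -0.18 with and -0.39 without quantile normalization, with 1 of 73 higher and 0 lower in the latter. The smallest adjusted p was 0.0684. The differences were small for most genes, and the 95% interval lay within a 2-fold change either way for 10117 genes (94.4%). The genes below are therefore described by their values, and counts of list members at an unadjusted p under 0.05 are to be read against the shares of all genes just given. Leaving out Vehicle replicate 1 of day 2 gave 9 called genes, all higher, among them Acot12, Clca4a, Slc5a12, Sec14l2, Sectm1b, Asah2 and Bst1, and leaving out VPA/EPZ6438 replicate 2 of day 5 gave 1 (Gramd1b).

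Acot12, an acetyl-CoA thioesterase, had the smallest p of all genes. At day 1 it was at 2.26 and 2.40 TPM in Vehicle and 10.9 and 9.54 TPM in VPA/EPZ6438, at day 2 at 16.6 and 9.98 TPM against 35.6 and 31.8 TPM, and at day 5 at 2.42 and 2.13 TPM against 12.5 and 10.02 TPM. Both VPA/EPZ6438 libraries lay above both Vehicle libraries at every day, and the day 5 Vehicle values were close to those of normal crypts (3.27 and 1.40 TPM). The log2 difference was 1.33 (standard error 0.17, 95% interval 0.95 to 1.70), with a Benjamini-Hochberg adjusted p of 0.0684 in limma. Acot12 lies on chromosome 13 of mm10 from 91741512 to 91786148. Such a separation within each of the 3 days, on the normalized scale, was found for 125 genes in the upward direction (1.17% of genes tested) and for 130 in the downward direction (1.21%).

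The list of enterocyte genes held 30 genes, all of which were tested. Of these, 23 were higher at an unadjusted p under 0.05 (76.7%, against 8.16% of all genes), 0 were lower, and none had an adjusted p under 0.05. The median difference was 0.61, against -0.017 over all genes tested, and 8 genes had every VPA/EPZ6438 library above every Vehicle library of the same day on the normalized scale (26.7%, against 1.17%). The list was singled out from 61 lists after their values were seen. Its genes are expressed by the same cells and were measured in the same libraries, so they are not independent of each other. The mean log2(TPM + 1) of the 30 genes after normalization was 7.76 and 7.61 in Vehicle and 8.28 and 8.48 in VPA/EPZ6438 at day 1. At day 2 it was 8.91 and 8.24 in Vehicle and 9.01 and 8.97 in VPA/EPZ6438, and at day 5 7.02 and 6.75 against 7.88 and 7.20. The groups did not overlap at any of the 3 days, and the spread between days was wider than the difference between treatments.

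**Figure D2:**
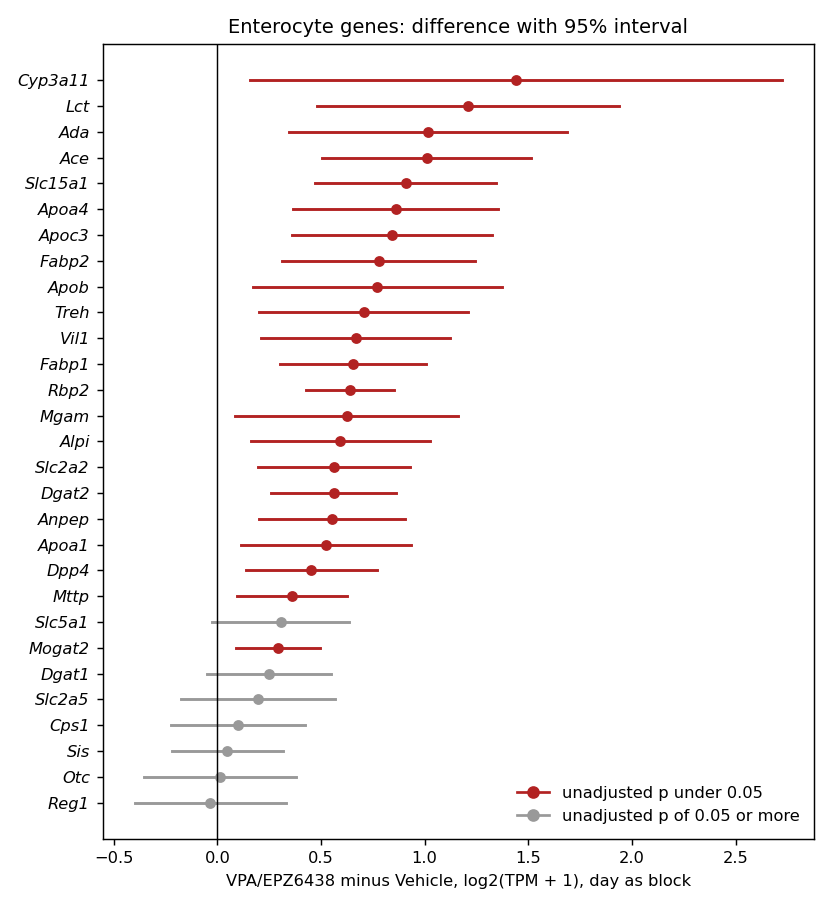
Difference of each of 29 of the 30 enterocyte genes, VPA/EPZ6438 minus Vehicle on log2(TPM + 1) with day as a block. Points are limma estimates from 12 libraries, lines are 95% intervals, and red marks an unadjusted p under 0.05. The estimates run from -0.034 for Reg1 to 1.44 for Cyp3a11, and of the 29 genes drawn 28 are above 0.

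The sequences just before the start sites of 3 of these genes are shown, chosen from the 10 members of smallest p because each holds 3 matches to the motifs of factors known in enterocytes. The 250 bases before the start of Rbp2 (chr9:98490287-98490536, plus strand), Fabp1 (chr6:71199629-71199878, plus strand) and Lct (chr1:128328319-128328568, minus strand) are from RefSeq on GRCm38.p6, the same assembly as mm10, and capitals mark the matches.
Rbp2: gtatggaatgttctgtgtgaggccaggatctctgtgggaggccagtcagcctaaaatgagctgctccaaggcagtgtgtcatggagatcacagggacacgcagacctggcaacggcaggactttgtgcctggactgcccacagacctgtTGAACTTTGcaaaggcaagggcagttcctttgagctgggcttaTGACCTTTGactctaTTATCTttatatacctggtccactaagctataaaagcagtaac
Fabp1: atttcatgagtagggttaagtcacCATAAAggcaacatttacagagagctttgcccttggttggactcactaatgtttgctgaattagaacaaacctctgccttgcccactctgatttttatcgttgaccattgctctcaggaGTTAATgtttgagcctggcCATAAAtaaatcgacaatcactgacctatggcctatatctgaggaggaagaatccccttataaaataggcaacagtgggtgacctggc
Lct: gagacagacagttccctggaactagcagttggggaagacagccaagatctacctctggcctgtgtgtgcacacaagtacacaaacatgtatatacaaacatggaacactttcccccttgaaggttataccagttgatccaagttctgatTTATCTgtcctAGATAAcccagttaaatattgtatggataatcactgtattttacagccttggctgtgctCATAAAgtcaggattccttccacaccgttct

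The motifs searched on both strands were CAAAGNTCA (a pair of half-sites bound by HNF4), TTTATG (bound by CDX factors), AGATAA (bound by GATA factors) and GTTAAT (bound by HNF1), and no match overlaps another in the 3 sequences. Of the 30 genes, 24 had a promoter in the table, and of the 10 of smallest p, 7 had one. CAAAGNTCA was found in the 250 bases of 2 of 24 enterocyte genes (8.33%) against 1.28% of the genes tested and 1.30% of all promoters, TTTATG in 4 of 24 enterocyte genes (16.7%) against 5.93% of the genes tested and 11.1% of all promoters, AGATAA in 4 of 24 enterocyte genes (16.7%) against 6.14% of the genes tested and 10.3% of all promoters and GTTAAT in 2 of 24 enterocyte genes (8.33%) against 4.06% of the genes tested and 6.52% of all promoters. Rbp2 held CAAAGNTCA at 2 positions and AGATAA at 1. The matches are letters in a window of fixed length, and binding was not measured here.

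Rbp2, the retinol-binding protein of the enterocyte cytoplasm, was among the most strongly expressed of the list. It was at 3903 and 4125 TPM in Vehicle and 4747 and 5816 TPM in VPA/EPZ6438 at day 1, at 6327 and 5230.2 TPM against 9100.0 and 8585 TPM at day 2, and at 3214 and 3053 TPM against 5654 and 4093 TPM at day 5. VPA/EPZ6438 was above Vehicle at each day without overlap, and both arms were highest at day 2. The log2 difference was 0.64 (standard error 0.098, 95% interval 0.43 to 0.85), with an adjusted p of 0.162 in limma, and its p ranked next to that of Acot12. Rbp2 lies on chromosome 9 of mm10 from 98486115 to 98509781 in the annotation of GENCODE, whose span begins upstream of the RefSeq start used for the sequence above.

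Among the genes that handle dietary fat, Fabp1, which binds fatty acids in the cytoplasm, was at 3637 and 4144 TPM in Vehicle and 4486 and 5789 TPM in VPA/EPZ6438 at day 1, 4238 and 3617 TPM against 7019.5 and 6910.4 TPM at day 2 and 3357 and 2329 TPM against 5775 and 3754 TPM at day 5. These did not overlap within any day, and the log2 difference was 0.65 (95% interval 0.30 to 1.00). Apoa4, an apolipoprotein of chylomicrons, was at 1052 and 1229 TPM against 1831 and 4028 TPM at day 1, 3312 and 1641 TPM against 5304 and 3924 TPM at day 2 and 818 and 1048 TPM against 1860.3 and 1103 TPM at day 5, a log2 difference of 0.86 (95% interval 0.36 to 1.36). In TPM both VPA/EPZ6438 libraries lay above both Vehicle libraries on each day, by a narrow margin at day 5. Apoc3, another apolipoprotein, ranged over 63.1, 206 and 967 TPM (lowest, median and highest) in Vehicle and 115, 575 and 1107 TPM in VPA/EPZ6438, with a log2 difference of 0.84. Dgat2 and Mogat2, which rebuild triglycerides, and Mttp, which loads them onto lipoproteins, differed by 0.56, 0.29 and 0.36, each with the libraries separated within all 3 days. Dgat1 differed by 0.25 (95% interval -0.050 to 0.55), an interval that holds 0. Fabp2 was higher by 1.12 at day 1 and 1.22 at day 5, while at day 2, at 14269.8 and 11748 TPM in Vehicle and 19642 and 17214 TPM in VPA/EPZ6438, the normalized means were equal, since quantile normalization gives genes of the same rank the same value and Fabp2 was near the top of every library of that day.

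**Figure D3:**
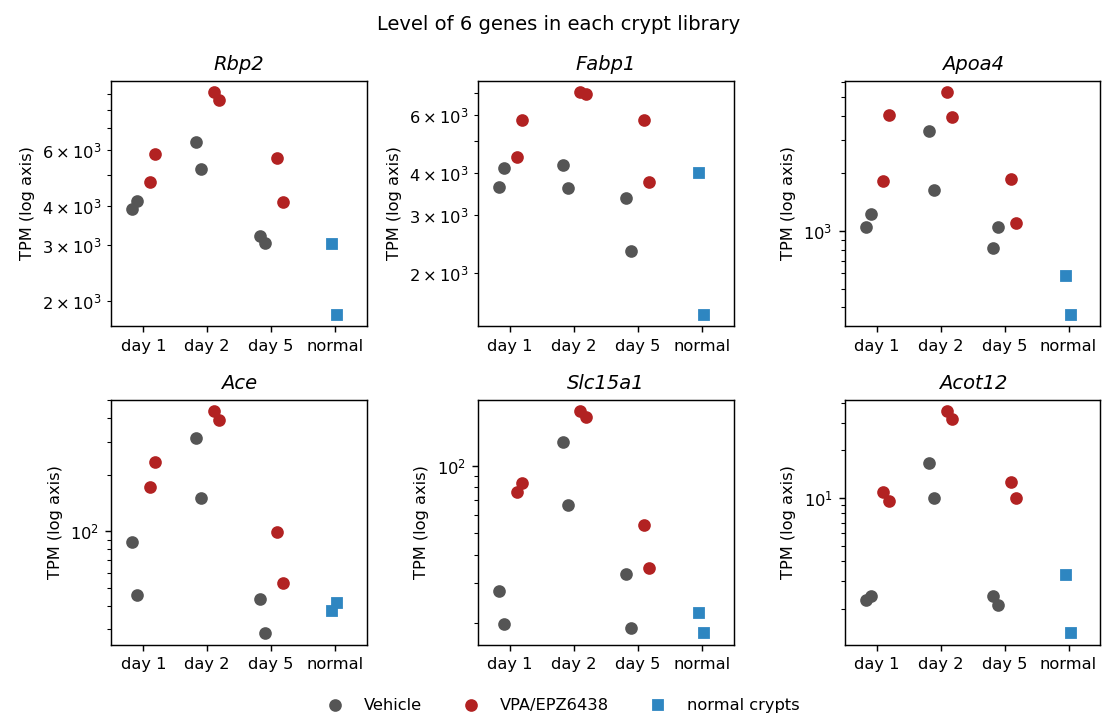
TPM (log axis) of Rbp2, Fabp1, Apoa4, Ace, Slc15a1 and Acot12 in each library at days 1, 2 and 5, with 1 point per library (grey Vehicle, red VPA/EPZ6438) and the 2 normal crypt libraries as blue squares. For each gene both VPA/EPZ6438 libraries lie above both Vehicle libraries of the same day, and the highest single value of each arm is at day 2.

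Among brush border enzymes, Ace, a dipeptidase, was at 87.5 and 45.5 TPM in Vehicle and 172 and 234 TPM in VPA/EPZ6438 at day 1, 313 and 151 TPM against 438 and 392 TPM at day 2 and 43.6 and 28.5 TPM against 98.9 and 52.8 TPM at day 5. The libraries were separated within each day, and the log2 difference was 1.01 (95% interval 0.51 to 1.51, adjusted p = 0.274 with limma). Lct, the lactase, was at 47.7 and 28.2 TPM against 98.8 and 112 TPM at day 1, 163 and 72.7 TPM against 197 and 201 TPM at day 2 and 8.38 and 1.35 TPM against 28.8 and 11.5 TPM at day 5, a log2 difference of 1.21. Its TPM was lowest at day 5 in both arms, and the interval was wide (95% interval 0.48 to 1.94). Alpi (intestinal alkaline phosphatase), Anpep and Dpp4 (peptidases), Treh (trehalase) and Mgam (maltase-glucoamylase) differed by 0.59, 0.55, 0.45, 0.71 and 0.62. Sis, the sucrase-isomaltase, differed by 0.048 (95% interval -0.22 to 0.32), with 399, 605 and 821 TPM (lowest, median and highest) in Vehicle and 429, 686 and 852 TPM in VPA/EPZ6438, and its arms overlapped.

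Transporters differed among themselves. Slc15a1, the peptide transporter PEPT1, was at 27.8 and 19.6 TPM in Vehicle and 76.5 and 83.6 TPM in VPA/EPZ6438 at day 1, 127 and 66.9 TPM against 175 and 164 TPM at day 2 and 32.9 and 18.96 TPM against 54.2 and 35.01 TPM at day 5, a log2 difference of 0.91 (95% interval 0.47 to 1.35). The glucose transporter Slc2a2 differed by 0.56 (95% interval 0.20 to 0.93). The intervals of the sodium-glucose cotransporter Slc5a1 (0.31, 95% interval -0.024 to 0.63) and the fructose transporter Slc2a5 (0.20, 95% interval -0.17 to 0.57) held 0. The remaining members whose intervals held 0 were the urea cycle enzymes Cps1 (0.099) and Otc (0.014), together with Dgat1 and Sis above and Reg1 (-0.034), a secreted lectin. Further members were the apolipoproteins Apob (0.77, 95% interval 0.17 to 1.37) and Apoa1 (0.52, 95% interval 0.12 to 0.93), villin (Vil1, 0.67, 95% interval 0.21 to 1.12), which bundles the actin of microvilli, and the adenosine deaminase Ada (1.01, 95% interval 0.34 to 1.68).

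The 15 genes of smallest p that were higher at each day and reached a mean of 5 TPM in at least 1 arm held Acot12 and Rbp2, and among the others were Clca4a, Gramd1b, Slc5a12, Sec14l2, Kalrn, Sectm1b, Asah2, Adap2, Pfkfb3, Osbpl3, Clca4b and Bst1. Their log2 differences lay between 0.72 (Kalrn) and 1.56 (Slc5a12), each with an adjusted p (limma) of 0.224 to 0.247. Slc5a12, a sodium-coupled lactate transporter, was at 2.97 and 1.98 TPM in Vehicle and 17.5 and 27.2 TPM in VPA/EPZ6438 at day 1, 33.99 and 18.8 TPM against 57.1 and 58.6 TPM at day 2 and 2.75 and 0.919 TPM against 11.4 and 5.35 TPM at day 5. The libraries did not overlap within any day, and in both arms the values were highest at day 2. Asah2, the neutral ceramidase of the brush border, ranged over 8.44, 20.8 and 76.4 TPM (lowest, median and highest) in Vehicle and 23.4, 46.4 and 126 TPM in VPA/EPZ6438. Gramd1b, which moves cholesterol from the plasma membrane to the endoplasmic reticulum, was at 5.47 and 4.01 TPM against 17.00 and 16.8 TPM at day 1 and 20.4 and 11.6 TPM against 54.99 and 50.8 TPM at day 2, and at day 5 at 11.8 and 13.9 TPM against 30.9 and 14.5 TPM, where the lower VPA/EPZ6438 library lay close to Vehicle. Clca4a and Clca4b, neighbouring members of a family of similar genes, between which reads could have been divided, differed by 1.09 and 0.79. Clca4a was at 4.18 and 3.92 TPM in Vehicle at day 1 and 211 and 109.7 TPM at day 2, a larger difference than that between treatments. All 15 genes kept their sign in each of the alternative settings that gave a value (28 settings, or 27 for Adap2, including each library and each day left out). They were chosen by small p and the same sign at each day, so this is not independent support.

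Of 27 genes of drug and steroid metabolism tested, 9 were higher at an unadjusted p under 0.05 (33.3%, against 8.16% of all genes) and 0 lower, none had an adjusted p under 0.05, and the median was 0.29. Cyp3a11, which it shares with the enterocyte list and which oxidizes many drugs, had the largest difference, 1.44 (95% interval 0.16 to 2.72). Its values were 39.3 and 139.7 TPM in Vehicle and 144 and 588 TPM in VPA/EPZ6438 at day 1, 326 and 148 TPM against 388 and 449 TPM at day 2 and 6.12 and 5.66 TPM against 94.8 and 6.58 TPM at day 5. Replicates of 1 group differed by more than the arms did at days 1 and 5, and at day 5 a single VPA/EPZ6438 library carried the difference. The same library held 38.8 TPM of Cyp2b10, against 4.83 TPM in the other VPA/EPZ6438 library and 5.01 and 0.924 TPM in Vehicle. Cyp3a13 was more even, at 99.02, 107 and 201 TPM (lowest, median and highest) in Vehicle and 122, 222 and 285 TPM in VPA/EPZ6438, with a difference of 0.53 and libraries separated within each day. Without quantile normalization 16 of 27 were higher, and relative to all genes the median was 0.31 with and 0.29 without it. The nuclear receptors Nr1i2 (PXR) and Nr1i3 (CAR), which control Cyp3a and Cyp2b genes, differed by 0.44 (95% interval 0.15 to 0.73) and 0.46 (95% interval 0.15 to 0.76).

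Among fatty acid oxidation genes and PPAR targets, 5 of 27 were higher at an unadjusted p under 0.05 and 0 lower (median 0.15). Among them were Fabp1, the fatty acid translocase Cd36 (1.00), the lipase inhibitor Angptl4 (0.94) and Pdk4, which restrains pyruvate oxidation (0.96). Of 19 intestinal transcription factors tested, 3 were higher and 0 lower. The 3 were Creb3l3 (0.53), which controls apolipoprotein genes, Hnf4g (0.48), a nuclear receptor of enterocytes, and Maf (0.44), and Hnf4a had 0.33 (95% interval -0.066 to 0.73) and Cdx1 -0.12 (95% interval -0.26 to 0.020). Of 9 villus tip genes, 4 were higher (median 0.49), 2 of them shared with the enterocyte list. The villus tip median was 0.10, 0.53 and 0.11 at days 1, 2 and 5, and 0.055 without Vehicle replicate 2 of days 1 and 2. Of 11 genes of retinoid handling Rbp2 alone was at that threshold on the normalized scale (median 0.19). Integrin and laminin genes, which anchor epithelial cells to the basement membrane, were higher in 7 of 15 (median 0.26), with 0.60 for Itgb4, 0.32 for Itga6 and 0.82 for Plec, a linker of hemidesmosomes to keratin. With the trend of each library with transcript length removed, 4 of 15 integrin and laminin genes and 3 of 11 retinoid genes were higher. The integrin and laminin median was 0.17 without Vehicle replicate 2 of days 1 and 2. Without quantile normalization, where 33.7% of all genes were higher, the counts were 15 of 27 for fatty acid oxidation, 12 of 19 for the transcription factors, 5 of 9 for the villus tip, 8 of 11 for retinoid handling and 11 of 15 for integrins and laminins. Relative to all genes the medians of these lists were 0.16, 0.15, 0.50, 0.20 and 0.27 with quantile normalization and 0.15, 0.15, 0.47, 0.19 and 0.29 without it.

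In the downward direction, genes of cholesterol synthesis and its feedback had a raised count, with 9 of 24 lower at an unadjusted p under 0.05 (37.5%, against 8.10% of all genes), 0 higher and a median of -0.25. Insig1, which holds back the activation of sterol-responsive factors, had the smallest p of the list (-0.49, 95% interval -0.77 to -0.21). Sqle (squalene epoxidase), Fdft1 (squalene synthase), Fdps (farnesyl diphosphate synthase) and Mvk (mevalonate kinase) differed by -0.38, -0.48, -0.37 and -0.31. In TPM the arms of Insig1 were separated within each day, at 19.04 and 24.4 TPM in Vehicle and 18.9 and 17.3 TPM in VPA/EPZ6438 at day 1, 19.5 and 20.8 TPM against 25.2 and 22.5 TPM at day 2 and 41.8 and 29.7 TPM against 20.4 and 22.4 TPM at day 5. VPA/EPZ6438 lay below Vehicle at days 1 and 5 and above it at day 2, and the negative estimate at day 2 (-0.21) was present only after normalization. Without quantile normalization the median of the cholesterol list was 0.016, with 2 of 24 higher and 0 lower. The sign thus depended on the scaling, and relative to all genes the list lay at -0.24 with normalization and -0.23 without it.

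Of 73 cytosolic ribosomal protein genes, 38 were lower at an unadjusted p under 0.05 and 0 higher, with a median of -0.20 and the widest gap at day 2 (-0.11, -0.41 and -0.075 at days 1, 2 and 5). Rplp1 had -0.30, with 2658, 4329 and 5446 TPM (lowest, median and highest) in Vehicle and 2232, 3522 and 5288 TPM in VPA/EPZ6438, and the arms overlapped. Of 33 nuclear genes of respiratory complex I, 7 were lower and 0 higher (median -0.14). Both lists hold short transcripts, with a median exon length of 1830 and 1718 bases against 4190.5 for all genes tested, and across genes the difference was correlated with log2 length at 0.32 (10714 genes, which share the 12 libraries). With the length trend of each library removed, 13 of 73 and 1 of 33 were lower, with medians of -0.10 and -0.043, and 13 and 1 were lower without Vehicle replicate 2 of days 1 and 2, the libraries of lowest length correlation (a choice made after seeing the data). Without quantile normalization the complex I median was 0.042 (2 higher and 0 lower), which relative to all genes is -0.20, against -0.13 with it. With libraries scaled to the 75th percentile 58 of 73 were lower. The part of length in these counts was not tested further. The enterocyte count, 23 of 30 with a median of 0.61, was 23 of 30 (median 0.64) with the length trend removed and 18 of 30 (median 0.44) without the same 2 libraries, and it was 4 of 30 without the day block (same median). Relative to all genes the enterocyte median was 0.63 with and 0.51 without quantile normalization.

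Among secretory cells, enteroendocrine genes gave 3 of 16 lower and 0 higher at an unadjusted p under 0.05 (median -0.23). The 3 were the hormone genes Gcg (proglucagon, -0.57, 95% interval -0.84 to -0.31), Tac1 (substance P precursor, -0.61) and Sst (somatostatin, -0.41). Gcg was at 123 and 152 TPM in Vehicle and 104 and 85.5 TPM in VPA/EPZ6438 at day 1, 71.9 and 102 TPM against 77.4 and 81.4 TPM at day 2 and 49.4 and 32.8 TPM against 27.9 and 28.7 TPM at day 5. In TPM the arms were separated at days 1 and 5 and overlapped at day 2, and after normalization VPA/EPZ6438 lay below Vehicle at each day. Of other hormone genes, the intervals held 0, with -0.23 (95% interval -0.49 to 0.029) for Cck, 0.24 (95% interval -0.032 to 0.50) for Sct and 0.11 (95% interval -0.19 to 0.41) for Gip. Relative to all genes the enteroendocrine median was -0.22 with and -0.20 without quantile normalization, with 3 higher and 1 lower in the latter. Of 20 goblet cell genes, 4 were lower and 0 higher (median -0.12), against 3 higher and 0 lower without quantile normalization (median relative to all genes -0.25, with it -0.10), and the mucin gene Muc2 had 0.51 (95% interval -0.16 to 1.18). Of 19 Paneth cell genes, 1 was higher (Defa30, 0.26) and 0 lower, and since defensin genes are near copies of one another, their single values are uncertain. These genes are short (median exon length 594 bases), and with the length trend removed 6 of 19 were higher (median 0.19, against 0.067). Other genes of smallest p in the downward direction were outside the lists of cell types, among them Zdhhc4 (-0.42), Arl2bp (-0.39), Josd2 (-0.49), Gng10 (-0.65), Lrrc26 (-0.51), Pgls (-0.37), Polr2k (-0.39), Tmem258 (-0.34), Pla2g12a (-0.53), Wdr83os (-0.41), Fgfbp1 (-0.52) and Cst3 (-0.39). Polr2k is a subunit of RNA polymerases. All 15 genes of smallest p in this direction, Gcg and Insig1 included, kept their sign in each alternative setting. They too were chosen by small p and the same sign at each day, so this is not independent support.

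**Figure D4:**
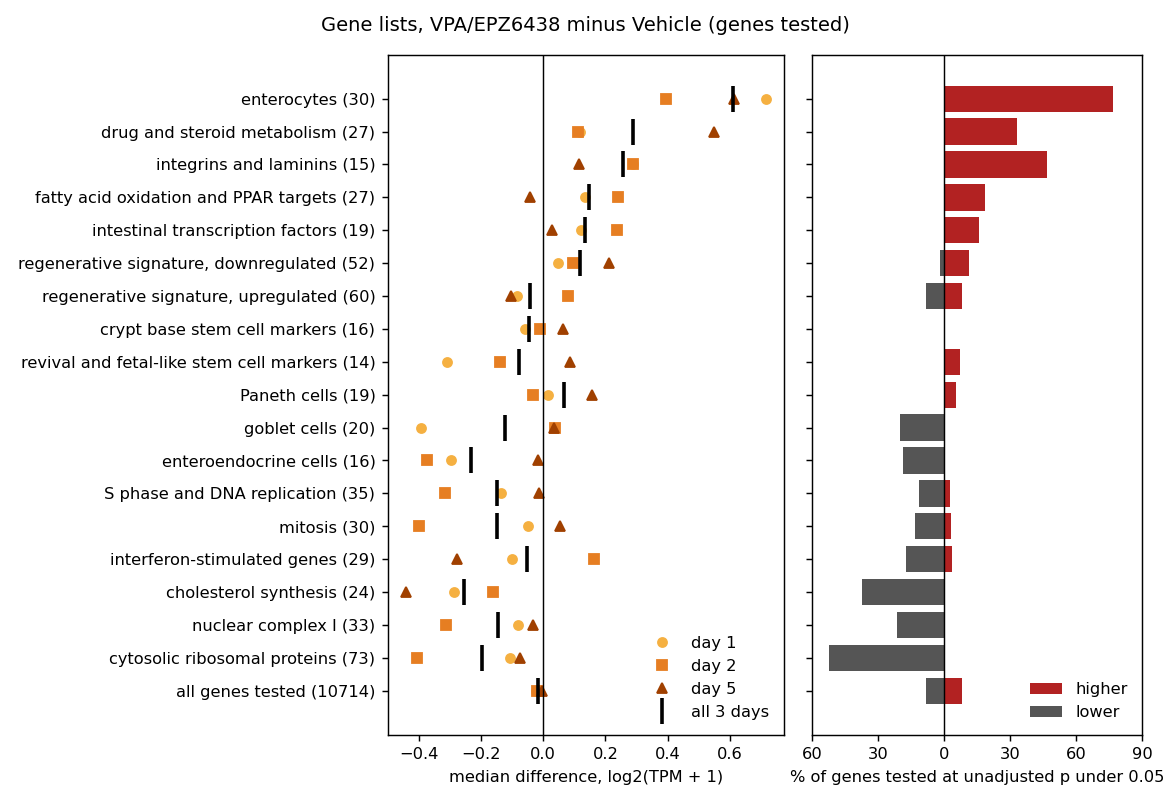
Left, median difference of the members of 18 gene lists and of all genes tested at day 1, day 2 and day 5, with a bar for the fit over all 3 days. Right, share of members at an unadjusted p under 0.05, higher to the right and lower to the left. Enterocyte genes stand at 0.72, 0.40 and 0.61, whereas all genes tested lie between -0.023 and -0.0056.

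For the in vivo part the study asked whether VPA/EPZ6438 promotes regeneration of the epithelium after injury. In crypt RNA it reported the YAP signature. Of the genes listed in its supplement as upregulated in repairing epithelium, 60 of 63 were tested, and 5 were higher and 5 lower at an unadjusted p under 0.05, shares of 8.33% each against 8.16% and 8.10% of all genes, with a median of -0.042. Of the downregulated genes, 52 of 54 were tested, 6 were higher and 1 lower, with a median of 0.12. Without quantile normalization 16 of 60 and 20 of 52 were higher and 0 lower, where 33.7% of all genes were higher, and relative to all genes the medians were -0.061 and 0.10, against -0.025 and 0.13 with it. With the length trend removed 13 of 52 downregulated genes were higher and 0 lower (median 0.17), and without Vehicle replicate 2 of days 1 and 2 the count was 2 higher and 0 lower (median 0.15). In the same settings 3 and 1 of 60 upregulated genes were higher and 3 and 0 lower. The highest estimate among the downregulated genes was that of Mme, a brush border peptidase (1.06, 95% interval 0.51 to 1.61). The study named 10 target genes of YAP, a co-activator that drives repair after injury, from crypts of this experiment. Its crypt heatmap of the YAP signature is of day 3, which is not in the fit. The genes are thus not independent of the experiment. Of the 10, 8 were tested, and Ctgf and Cyr61 were not found under those names. None of the 8 was at an unadjusted p under 0.05 in either direction (median -0.063). Their intervals ran from -0.49 to 0.51 for Il33, from -0.53 to 0.48 for Areg and from -0.55 to 0.24 for Anxa1, so that for these 3 genes differences of 2-fold or more lie outside the interval. Amotl2 had the largest estimate (0.38, 95% interval -0.10 to 0.85), at 0.343, 0.694 and 1.94 TPM (lowest, median and highest) in Vehicle and 0.619, 1.92 and 3.01 TPM in VPA/EPZ6438. Tead1, Ajuba, Anxa6 and Ereg had estimates of 0.11, -0.22, -0.18 and -0.10.

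Clu, the marker of revival stem cells, was at 12.03 and 3.30 TPM in Vehicle and 9.71 and 9.06 TPM in VPA/EPZ6438 at day 1, 37.5 and 62.5 TPM against 58.2 and 57.4 TPM at day 2 and 61.4 and 55.98 TPM against 55.02 and 71.1 TPM at day 5. The arms overlapped at each day, the log2 difference was 0.015 (95% interval -0.38 to 0.41), and both arms were higher at days 2 and 5 than normal crypts (7.53 and 6.35 TPM). Anxa1, which marks the same cells, was at 3.75 and 3.24 TPM in Vehicle at day 1 and 50.8 and 74.4 TPM at day 5, and at 4.05 and 2.99 TPM and 59.04 and 83.1 TPM in VPA/EPZ6438 at those days. Ly6a, a marker of fetal-like epithelium, had -0.44 (95% interval -1.01 to 0.13), and the antimicrobial lectins Reg3b and Reg3g had -0.13 and -0.064. Reg3b was at 3424, 7704 and 67736 TPM (lowest, median and highest) in Vehicle and 3350.2, 7806 and 43257 TPM in VPA/EPZ6438. At day 5 the normalized means of Reg3b and Reg3g were equal, as for Fabp2 at day 2. In TPM Reg3b was then at 40750 and 67736 TPM in Vehicle against 34936 and 43257 TPM. Reg3g was at 13092 and 26887 TPM against 9854 and 14633 TPM. Over the alternative settings the estimates ran from -0.46 to 0.0029 for Reg3b and from -0.54 to 0.034 for Reg3g. Reads of Ly6a, Reg3b and Reg3g may have been divided with closely similar members of their families. Olfm4, a stem cell marker, was at 5.74 and 8.58 TPM in Vehicle and 6.51 and 5.28 TPM in VPA/EPZ6438 at day 2 and at 147 and 103 TPM against 152 and 152 TPM at day 5, a difference of -0.21 over the 3 days (95% interval -0.61 to 0.18). Of 16 crypt base stem cell markers tested, none was at an unadjusted p under 0.05 (median -0.046), and of 35 genes of DNA replication and 30 of mitosis, 4 and 4 were lower and 1 of each was higher (medians -0.15 and -0.15). Without quantile normalization 5 of 16 stem cell markers were higher (against 33.7% of all genes), and 0 genes of replication and 0 of mitosis were lower. The signs of Clu, Il33 and Areg each changed in 7 of 28 alternative settings, and those of Ly6a and Amotl2 in none.

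The targets of the compounds were followed as well. None of 14 tested histone deacetylase genes and none of 11 tested genes of the complex that holds EZH2 were at an unadjusted p under 0.05 in either direction (medians -0.0045 and 0.097), while without quantile normalization 4 and 5 were higher and 0 lower, against 33.7% of all genes higher. Transcript levels say nothing of whether the enzymes were inhibited. Of 7 tested genes of CDK inhibitors, which brake the cell cycle, 3 were lower and 0 higher (Cdkn3, -0.55, Cdkn2b, -0.33, and Cdkn2c, -0.38), against 2 higher and 0 lower without quantile normalization (median relative to all genes -0.14, with it -0.16), and Cdkn1a (p21) had 0.00094 (95% interval -0.17 to 0.18). Of 29 interferon-stimulated genes, 1 was higher and 5 were lower (median -0.053), and without quantile normalization 6 were higher and 0 lower (median relative to all genes -0.022, with it -0.036). Of 26 p53 target genes 0 were higher and 1 lower, and without quantile normalization 9 and 0. Markers of T and NK cells, some of which live within the epithelium, had 15 of 15 estimates above 0, against 5050 of 10714 over all genes tested. Of the 15, 2 were at an unadjusted p under 0.05 (Ccl5, 0.62, and Itgae, 0.42). The cytotoxic gene Gzma was at 113 and 95.6 TPM in Vehicle and 253 and 361 TPM in VPA/EPZ6438 at day 1. At day 2 it was at 306 and 279.7 TPM against 286 and 263 TPM. Without quantile normalization 13 of 15 were higher, against 33.7% of all genes, and with the length trend removed 5 of 15, and the median relative to all genes was 0.34 and 0.41, against 0.33 on the normalized scale. The summed level of this list ranged from 10.5 to 666 TPM in Vehicle and from 22.3 to 764 TPM in VPA/EPZ6438. Other immune lists had negative medians, with 0 of 6 estimates of B and plasma cells above 0 (median -0.39, 1 lower at an unadjusted p under 0.05) and 3 of 12 of myeloid cells (median -0.23, 1 higher and 1 lower). Summed TPM of B and plasma cell markers were 162 to 402 in Vehicle and 155 to 226 in VPA/EPZ6438, and those of myeloid cells 18.3 to 78.1 and 26.01 to 74.3. Pancreatic acinar markers had 12 of 12 estimates above 0 and none at that threshold (median 0.70), and without Vehicle replicate 2 of days 1 and 2 their median was -0.17, while that of the enterocyte genes was 0.44. The summed level of the acinar markers was 75.5 to 296 TPM in Vehicle and 76.2 to 359 TPM in VPA/EPZ6438, and Prss1 was listed at 0 in all 12 libraries. The T and NK cell list, with a median of 0.31 and 0.21 without these 2 libraries, had the direction of the enterocyte genes, and its part in their difference was not tested.

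Within single days, in a fit of the 6 group means that shares the spread of all 12 libraries, limma called 0 genes at day 1 and 0 at day 2 at an adjusted p under 0.05, with 798 and 2216 at an unadjusted p under 0.05. At day 5 it called 2 genes, both higher (0.0187% of genes tested), with 221 at an unadjusted p under 0.05. The same 2 genes (0.0187%) were called in the test of a dependence of the difference on the day (moderated F test of treatment by day, with 589 genes at an unadjusted p under 0.05). They were Sftpc, the surfactant protein C of lung alveolar cells, and Scgb1a1, the secretoglobin of airway club cells. Sftpc was at 18.4 and 17.2 TPM in VPA/EPZ6438 at day 5, at 0.709 TPM in a VPA/EPZ6438 library of day 2 and at 0.104 TPM or less in the other 9 libraries. Scgb1a1 was at 79.7 and 70.6 TPM in VPA/EPZ6438 at day 5 and at 2.04 TPM or less elsewhere. In the 10 libraries other than these the mean was 0.0943 TPM for Sftpc and 0.249 TPM for Scgb1a1, so both genes passed the filter of a mean of 1 TPM only through the group in which they are high. Such genes had to differ, so nothing is read from these calls and the values are given as a description.

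Further lung genes, looked up after these were seen, followed them. Scgb3a2 was at 3.18 and 2.38 TPM, Sftpa1 at 1.75 and 2.00 TPM and Sftpb at 1.89 and 1.27 TPM in VPA/EPZ6438 at day 5, and all 3 were at 0 in Vehicle at day 5. The sum of 12 lung epithelial markers was 0.810 to 3.17 TPM in the 6 Vehicle libraries, 1.45 to 4.09 TPM in VPA/EPZ6438 at days 1 and 2, and 109 and 97.3 TPM in VPA/EPZ6438 at day 5. At day 3 it was 2.66 and 1.64 TPM in Vehicle and 92.5 and 81.4 TPM in VPA/EPZ6438. The sum was highest in the 4 VPA/EPZ6438 libraries of days 3 and 5, VPA/EPZ6438 replicate 2 of day 2 came next among the VPA/EPZ6438 libraries, and the source of this RNA was not tested. Nkx2-1, the defining transcription factor of lung epithelium, was at 0.0192 and 0.120 TPM in VPA/EPZ6438 at day 5. Enterocyte differences of day 5 come from these same libraries, and the enterocyte count with day 5 left out was 19 of 30. The next smallest adjusted p for a dependence on the day was 0.235 (Rbpms), followed by Neurog3, the factor that specifies enteroendocrine cells (0.39), so no enterocyte gene passed that test.

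Day 3 was not in the fit, and its libraries are separate from the 12. There the enterocyte genes lay the other way, with a median difference of -0.44 and 7 of 30 above 0, against -0.045 and 5022 of 10714 over all genes. The list summed to less TPM in each of the 4 libraries of day 3 than in any of the 12, and Rbp2 was at 1376 and 447 TPM in Vehicle and 843 and 833 TPM in VPA/EPZ6438 and Fabp1 at 967 and 214 TPM against 445 and 476 TPM. The Vehicle libraries of day 3 differed from each other more than the arms did, with a summed enterocyte level of 9099.9 and 2870.2 TPM, and both VPA/EPZ6438 libraries, at 4437 and 4145 TPM, lay between them. In a fit of 16 libraries, the difference at day 3 departed from that at the other days for 1057 of 10662 genes (limma, adjusted p under 0.05), 354 of them lower at day 3 (3.32%) and 703 higher (6.59%). Of the 30 enterocyte genes, 6 were lower at day 3 (Slc15a1, Slc2a2, Slc2a5, Dpp4, Cyp3a11 and Otc) and none higher. The upregulated genes of the regenerative signature had a median of 0.40 at day 3, with 8 of 60 called higher than at the other days and 0 lower, and of the downregulated genes 18 of 52 were called lower (median -0.85). At day 3 the 8 YAP targets had a median of 0.30, with 6 above 0 and 0 called different from the other days. Revival and fetal-like stem cell markers had a median of 0.45, with 14 of 14 above 0 and 3 called higher. Clu was at 84.5 and 142 TPM in Vehicle and 506 and 580.2 TPM in VPA/EPZ6438 at day 3, and its difference there exceeded that of the other days by 1.91 (95% interval 1.16 to 2.65, adjusted p = 0.014 with limma). These counts rested on single libraries, as they were 2 genes and 0 enterocyte genes without Vehicle replicate 1 of day 3, 53 and 1 without VPA/EPZ6438 replicate 1, 333 and 0 without VPA/EPZ6438 replicate 2, and 1429 and 21 without Vehicle replicate 2.

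**Figure D5:**
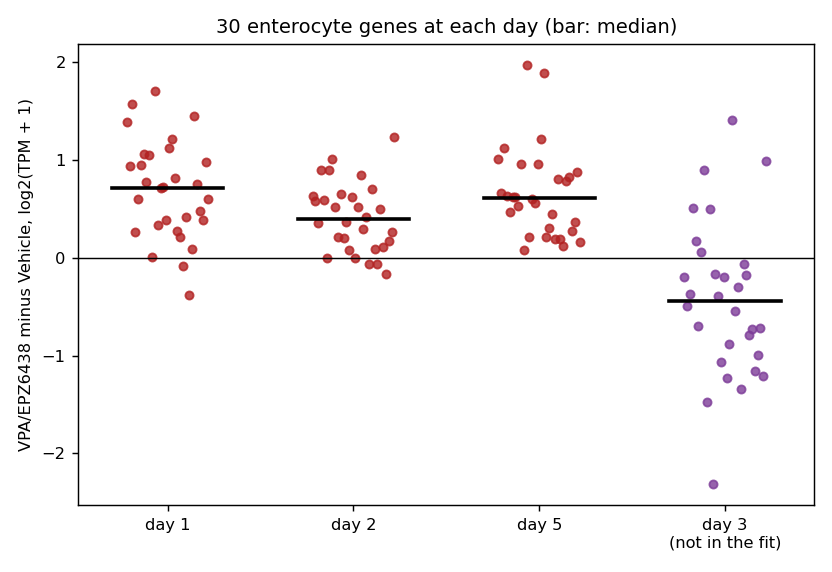
Difference of each of 30 enterocyte genes (VPA/EPZ6438 minus Vehicle, log2(TPM + 1)) at days 1, 2 and 5, from the 12 libraries of the comparison, and at day 3, from 4 libraries normalized on their own. Each point is a gene and the bar is the median, which is 0.72, 0.40, 0.61 and -0.44.

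Beside the normal crypts, which were not irradiated, the levels of Rbp2 (3028 and 1811 TPM) and Apoa4 (580.3 and 365 TPM) lay below those of all 12 libraries, by a narrow margin for Rbp2 in Vehicle at day 5. Fabp1 in normal crypts (3993 and 1495 TPM) overlapped Vehicle, and the 2 normal libraries differed from each other by over 2-fold. The enterocyte list summed to 17732 and 10258 TPM in normal crypts, to 16973 and 13970.5 TPM in Vehicle at day 5 and to 28459.7 and 20012 TPM in VPA/EPZ6438 at day 5. Vehicle at day 5 thus overlapped normal crypts in this sum and VPA/EPZ6438 lay above them, with no test made.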

How the data were processed

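RNA-seq values were taken from a table of 67 libraries and 29579 genes. The authors deposited TPM. Per the submitters' processing notes, reads were trimmed with Trimmomatic 0.39, aligned to mm10 with STAR 2.7.3a and counted with featureCounts. The step from counts to TPM, and whether strand was used, are not given in the sources used here. TPM keep no depth and are relative, so that a gene's share falls when others rise.

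All 29579 genes of the 12 libraries were quantile-normalized as log2(TPM + 1), and genes averaging 1 TPM or more were then kept. These were fitted in limma 3.58.1 (R 4.3.3) with terms for day and treatment and eBayes with trend and robust estimation. Calls needed a Benjamini-Hochberg adjusted p under 0.05 over all genes tested. The fit was tested on simulated data. Transcript lengths and coordinates came from GENCODE vM21 on mm10, and promoters from RefSeq. Members and lists were chosen with earlier results of these data known. Genes were to be named as the 15 largest called changes in each direction with the same sign at all 3 days and up to 4 called members of each list, with the YAP targets, 7 markers and the 10 genes of smallest p for a dependence on the day. As no gene was called, the 15 of smallest p in each direction were named instead, after their values were seen. Alternatives covered normalization, pseudocount, filter, mitochondrial genes, blocks, moderation, length, a minimum fold and leaving out libraries or days. Some genes that enter the counts are not reported here by name. Figures were drawn with matplotlib 3.10.9.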

Additional observations from a re-analysis of the deposited data

Results flagged for a closer look

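In the test of a dependence of the difference on the day, the genes called were Scgb1a1 (adjusted p = 0.00709) and Sftpc (adjusted p = 0.00289, both limma with Benjamini-Hochberg adjustment), lung genes that were high in both VPA/EPZ6438 libraries of day 5. Both passed the filter on low values only through these 2 libraries, so they had to differ and nothing is read from the test. With a pseudocount of 0.1 neither passed the test, and where the RNA came from was not tested.

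The difference at day 3 departed from that at days 1, 2 and 5 for 1057 genes, 13 of which are Clu or members of the enterocyte list or of the genes of smallest p. Of the genes of smallest p over the 3 days, these were Acot12 (difference -1.10 at day 3, adjusted p = 0.0170), Slc5a12 (difference -0.996 at day 3, adjusted p = 0.0311), Sectm1b (difference -1.15 at day 3, adjusted p = 0.0217), Asah2 (difference -0.59 at day 3, adjusted p = 0.0355), Adap2 (difference -0.19 at day 3, adjusted p = 0.0481) and Bst1 (difference -1.57 at day 3, adjusted p = 0.0224). Of the enterocyte genes they were Slc2a5 (difference -0.99 at day 3, adjusted p = 0.0452), Slc2a2 (difference -1.16 at day 3, adjusted p = 0.0258), Slc15a1 (difference -0.73 at day 3, adjusted p = 0.0493), Dpp4 (difference -1.07 at day 3, adjusted p = 0.0291), Otc (difference -1.34 at day 3, adjusted p = 0.0342) and Cyp3a11 (difference -2.32 at day 3, adjusted p = 0.0475). Clu departed in the upward direction (2.01 at day 3, adjusted p = 0.0140). The p-values are from limma with Benjamini-Hochberg adjustment over 10662 genes, and without Vehicle replicate 1 of day 3 only 2 genes departed. No group held more than 2 libraries, so a single library could not be tested as an outlier within its own group.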

How the results depend on the processing

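The count of genes called over days 1, 2 and 5 was 0 and moved to 2 without quantile normalization, to 1 with libraries scaled to the 75th percentile, with a mean of at least 5 TPM or with the length trend removed, and to 3 with all 18 crypt libraries in the fit, all of them higher, and to 0 to 9 with 1 library left out (9 without Vehicle replicate 1 of day 2). The count at day 1 (0) became 2 without quantile normalization, 8 without a filter and 13 without Vehicle replicate 2 of both day 1 and day 2 (added after seeing the data), and 0 to 46 with 1 library left out (46 without Vehicle replicate 1 of day 1). That at day 2 (0) became 92 without quantile normalization, 1 with a pseudocount of 0.1, 10 without a filter and 7 without the same 2 libraries, and 0 to 349 with 1 library left out (349 without Vehicle replicate 1 of day 2). That at day 5 (2) became 0 with a pseudocount of 0.1, 1 with at least 5 TPM and 22 without a filter, and 2 to 3 with 1 library left out. The count of genes whose difference depends on the day (2) became 0, 1 and 27 under these settings and 10 without the same 2 libraries, and 1 to 7 with 1 library left out (7 without Vehicle replicate 2 of day 2). The enterocyte count of 23 was 4 without the day block and 15 without day 1, and it was 21 to 26 with 1 library left out, where its median was 0.51 to 0.69. The 1057 genes of day 3 became 1642 without quantile normalization, 2436 without the same 2 libraries and 2 to 1429 with 1 day 3 library left out, and the 6 enterocyte genes became 1 without quantile normalization and 0 to 21 with 1 day 3 library left out. The cause was not tested in any of these.

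Whether replicate numbers pair the libraries could not be decided. The deviations of libraries of the same number correlated at 0.257 at day 1, -0.068 at day 2 and 0.162 at day 5. Each is a single value with nothing to compare it against. The fit with the replicate block called 0 genes and held 25 of 30 enterocyte genes at an unadjusted p under 0.05. TPM keep no depth, so the counting error of low values such as those of the lung genes is unknown.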

Other observations

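Gene lists not described in the report were counted in the same way, at an unadjusted p under 0.05 in limma. Heat shock genes had 3 of 11 higher and 1 lower (median 0.29), MHC class I genes 3 of 17 higher and 2 lower (median 0.13), genes of glutathione and the NRF2 response 3 of 22 higher and 2 lower (median -0.015) and circadian clock genes 1 of 13 higher and 0 lower (median 0.21). Without Vehicle replicate 2 of days 1 and 2 these medians were 0.10, -0.011, 0.016 and 0.030. Immediate early genes had 0 of 21 higher and 2 lower (median -0.21), Reg and antimicrobial genes 1 of 16 higher and 1 lower (median -0.14), Wnt targets 0 of 11 higher and 0 lower (median 0.077) and annexins 0 of 11 higher and 0 lower (median -0.11). Mitochondrially encoded genes, whose summed TPM is plotted by library in the report, had 0 of 13 higher and 4 lower (median -0.29). Without quantile normalization 8 heat shock, 7 MHC class I, 6 glutathione, 7 clock, 1 immediate early, 1 Reg and antimicrobial, 7 Wnt target and 3 annexin genes were higher and 0 of them lower, while 6 mitochondrially encoded genes were lower, where 33.7% of all genes were higher and 0.224% lower. The mitochondrially encoded count was 10 of 13 lower (median -0.55) with libraries scaled to the 75th percentile and 2 of 13 (median -0.16) with the length trend removed.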
